A study of Arabidopsis thaliana with 96 samples.

Results

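The 33 genes described here encode nucleus-encoded subunits of the photosynthetic electron transport chain of Arabidopsis thaliana and were picked by locus out of the 32833 loci of a leaf count table. They comprise 12 genes of photosystem I, 10 of photosystem II, 2 of the cytochrome b6f complex, the 2 plastocyanin genes, 2 genes for leaf ferredoxin, 2 for ferredoxin-NADP reductase (FNR) and 3 of the chloroplast ATP synthase. All 33 matched a RefSeq gene, and all 33 passed the filter on low counts that left 19498 genes for testing. The smallest count of any of them in any library was 435.

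Polyadenylated RNA was sequenced from leaf punches of 96 single plants of the accession Col-0, 1 library per plant. The plants grew in clay with ½ Hoagland's solution and an 8 h day, and punches were taken on day 30 after transplanting. The 12 groups of 8 plants crossed low light (100 µmol m-2 s-1), mid light (250) and high light (500) with nitrate at 2, 5, 10 and 20 mM. Every group carried the same wild-type genotype, and the light and nitrate treatments ran from transplanting to harvest, so the comparisons describe plants grown in a condition and not a short exposure.

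Photosystem II uses light to draw electrons from water and passes them through plastoquinone to the cytochrome b6f complex, and plastocyanin carries them on through the thylakoid lumen to photosystem I. Photosystem I reduces ferredoxin on the stromal side, FNR passes those electrons to NADP, and the proton gradient built up on the way drives the ATP synthase. The reaction centre proteins are encoded in the chloroplast, whereas the subunits listed here are made from nuclear transcripts in the cytosol and imported. Several of them come from paralogous pairs, and the way each member of a pair responded is given separately below.

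The subunit genes lie on all 5 chromosomes. As examples in RefSeq assembly TAIR10.1, FD1 (AT1G10960) spans chr1:3664187-3665040 on the plus strand, FD2 (AT1G60950) chr1:22444307-22445291 on the plus strand, PSBQ1 (AT4G21280) chr4:11334352-11335815 on the plus strand and PSBQ2 (AT4G05180) chr4:2671523-2673243 on the minus strand. To show what precedes genes with large and small light responses, the 250 bases before the annotated start are printed for 5 genes whose window touches no other gene. PSBQ2 and FD2 are genes with high-light levels well below those in low light, and PSAH1, PETM and FNR2 had smaller differences. Capitals mark matches on either strand to 4 motifs, none of which overlap in these windows. The G-box, an element found in many light-regulated promoters, reads CACGTG. The I-box, likewise known from promoters of photosynthesis genes, has the letters GATAAG. A motif described for GLK transcription factors, which act on chloroplast genes, is searched as CCAATC. The TATA box, an element near many transcription starts, is searched as TATAAA.
PSBQ2, chr4:2673244-2673493, minus strand: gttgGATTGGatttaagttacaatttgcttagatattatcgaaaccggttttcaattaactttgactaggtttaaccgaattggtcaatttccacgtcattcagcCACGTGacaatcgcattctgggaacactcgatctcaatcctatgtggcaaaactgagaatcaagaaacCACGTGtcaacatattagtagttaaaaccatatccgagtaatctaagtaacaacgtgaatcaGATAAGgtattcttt
FD2, chr1:22444057-22444306, plus strand: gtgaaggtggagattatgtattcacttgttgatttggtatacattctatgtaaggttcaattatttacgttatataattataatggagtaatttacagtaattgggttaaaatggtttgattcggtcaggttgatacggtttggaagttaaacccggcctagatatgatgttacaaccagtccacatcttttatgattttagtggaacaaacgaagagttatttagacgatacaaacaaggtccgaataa
PSAH1, chr3:5469595-5469844, minus strand: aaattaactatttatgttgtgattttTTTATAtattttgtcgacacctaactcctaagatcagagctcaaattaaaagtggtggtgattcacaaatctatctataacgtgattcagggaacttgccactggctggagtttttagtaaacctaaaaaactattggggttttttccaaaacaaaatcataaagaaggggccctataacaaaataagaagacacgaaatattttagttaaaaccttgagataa
PETM, chr2:11269832-11270081, plus strand: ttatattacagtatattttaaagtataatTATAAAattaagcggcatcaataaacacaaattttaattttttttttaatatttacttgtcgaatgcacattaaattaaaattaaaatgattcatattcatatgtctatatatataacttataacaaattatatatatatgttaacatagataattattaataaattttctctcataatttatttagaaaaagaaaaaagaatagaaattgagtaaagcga
FNR2, chr1:6942375-6942624, plus strand: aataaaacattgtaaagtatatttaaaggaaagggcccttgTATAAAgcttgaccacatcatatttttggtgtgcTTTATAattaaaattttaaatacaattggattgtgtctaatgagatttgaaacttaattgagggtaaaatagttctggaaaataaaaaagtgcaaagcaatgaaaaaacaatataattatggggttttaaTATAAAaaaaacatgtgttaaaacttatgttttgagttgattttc
PSBQ2 held 2 G-boxes, 1 I-box and 1 GLK motif, while FD2 held none of the 4 motifs in the printed bases. PSAH1 and PETM held a TATA box only, and FNR2 held 3 TATA boxes. In the 50 bases after the start, PSAH1 held a G-box and an I-box, and FNR2 a further TATA box. Over 250 bases before to 50 after the start, a G-box occurred in 12 of the 33 genes (36.4%) and in 7.68% of 27443 protein-coding genes. The I-box occurred in 18 of 33 (54.5%) and in 14.6% of all, the GLK motif in 7 of 33 (21.2%) and in 12.3% of all, and the TATA box in 17 of 33 (51.5%) and in 52.1% of all. These letter matches are a description of the windows and were not compared with the responses.

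In units of 1000000 counts, the library totals lay between 9.46 and 18.1 with a median of 12.5, and no pair of libraries within a group was a copy of another. Levels are given as normalised CPM, counts per 1000000 of the library total after TMM scaling, and the TMM factors averaged 1.21 in high light at 2 mM and 1.02 in low light at 2 mM. The codes that name the libraries run in 4 consecutive sets of 24, each with 2 libraries of every group, and the sources used here do not say if a set marks a batch. The sets differed in these genes: the library that was lowest for the most subunit genes came from set 1 in 11 of 12 groups, and the median deviation from the group means was -0.52, 0.08, 0.18 and 0.28 (log2) in sets 1 to 4. In 6 libraries at least 32 of the 33 genes lay at one end of the group of 8. The highest were replicate 7 of mid light with 2 mM, with a median log2 difference of 1.77 from the other 7, and replicate 8 of high light with 10 mM (0.83). The lowest, all in set 1, were replicate 2 of low light with 2 mM (-2.11), replicate 2 of mid light with 5 mM (-1.86), replicate 1 of high light with 5 mM (-1.28) and replicate 1 of mid light with 20 mM (-0.53). Counts of calls that moved by over 1.5 times without 1 of these libraries or with a term for code set are given both ways. Shares of all genes called by a test are given for the main fit only. A count that moved in another setting therefore cannot be read as particular to these 33 genes. As these 6 libraries were picked by the 33 genes themselves, less spread within groups without them follows from that choice. The summed level of the mesophyll markers RBCS1A, LHCB2.1, CAB3, RCA and CA1 was above 0 in every library, as the label leaf implies. So were the summed levels of markers of epidermis, guard cells and vasculature.

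Per kilobase of exon, the subunits ranged widely around the chain. Averaged over all libraries, PSBR, a small photosystem II subunit near the oxygen-evolving complex, was highest at 5366 normalised CPM per kb, followed by PSAF, part of the plastocyanin docking site of photosystem I, at 2886. The photosystem I genes ranged from 665.7 for PSAH1 to 2886 for PSAF, and the photosystem II genes from 849.6 to 5366. The carriers were split within their pairs, with FD2 at 2042 and PETE2 at 2021, against 353.2 for FD1 and 173.2 for PETE1, the lowest of the 33. FNR (501.1 to 645.8), the cytochrome b6f genes (708.2 to 851.4) and the ATP synthase genes (758.8 to 1049) lay below most photosystem genes.

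**Figure D1:**
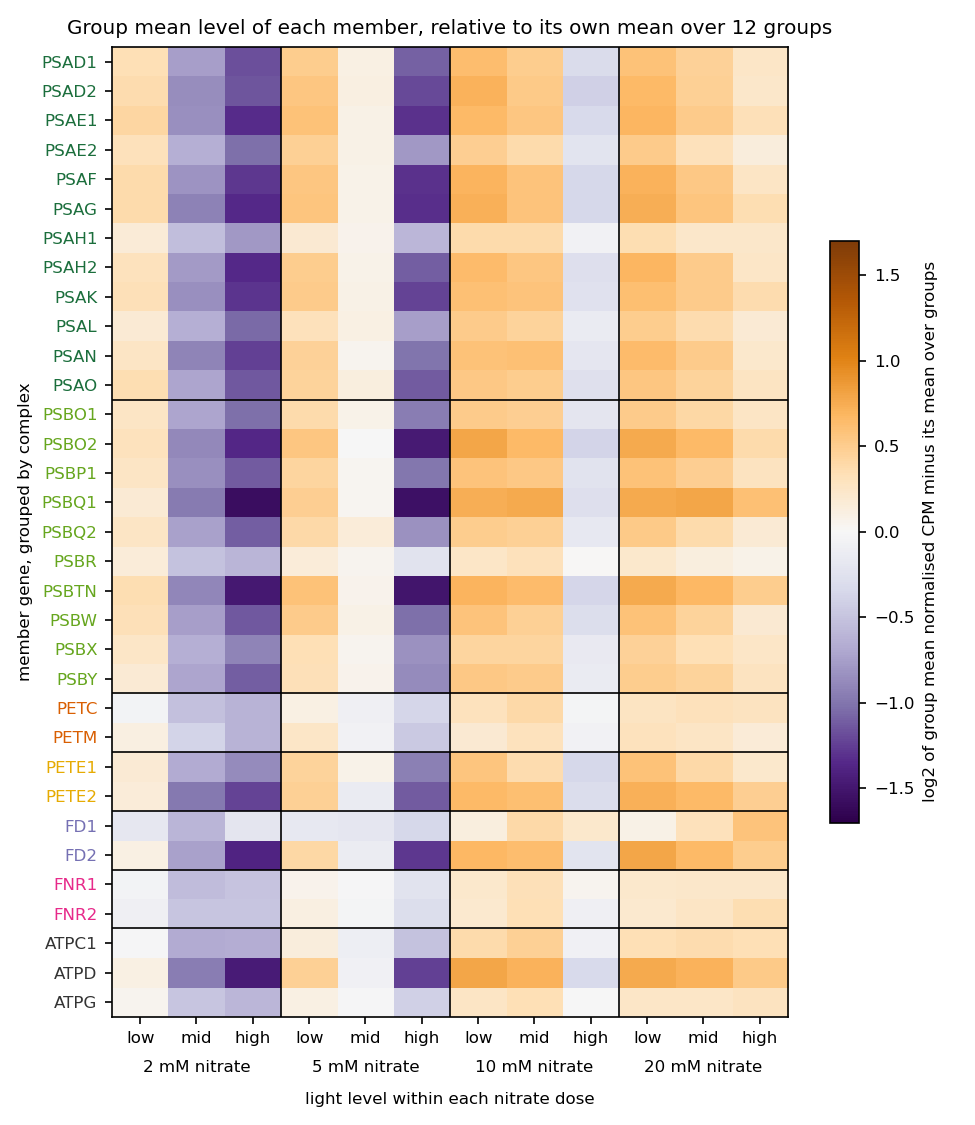
Group mean levels of the 33 subunit genes (each row a gene, grouped by complex) in the 12 light and nitrate groups (columns), as log2 of the group mean normalised CPM minus the gene's mean over the groups. The high light columns at 2 and 5 mM are the lowest for most photosystem genes, and FD1 departs from that pattern.

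Together the 33 transcripts took a smaller share of the leaf's counts in bright light when nitrate was scarce. At 2 mM they made up 3.01% ± 0.873 of all counts in high light, 3.40% ± 1.74 in mid light and 5.97% ± 1.78 in low light (SD, n = 8 each). At 20 mM the shares were 5.70% ± 0.993 in high light, 6.40% ± 0.740 in mid light and 6.84% ± 0.511 in low light. Photosystem I genes contributed 1.05% in high light and 2.47% in low light at 2 mM, a ratio of 0.424, while at 20 mM the ratio of high to low light was 0.784. For photosystem II genes the ratio of high to low light was 0.517 at 2 mM and 0.836 at 20 mM. A share of counts in a bulk sample cannot separate fewer mesophyll cells from less RNA per cell. The summed marker level of mesophyll moved with the subunits. These markers are themselves genes of photosynthesis, so their level cannot separate cell share from RNA per cell either. Its median was 14690 normalised CPM in high light libraries (8384 to 55270) and 42570 in low light libraries (6780 to 54770), and 45880 at 20 mM against 14030 at 2 mM. All 5 markers were called lower in high light averaged over doses and higher at 20 than at 2 mM averaged over light. In each comparison 28.7% of all genes were called in that direction. The part of these markers in the results was not tested.

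Averaged over the 4 nitrate doses, 31 of the 33 genes fell in high light relative to low light, where 28.7% of all tested genes were called lower (edgeR quasi-likelihood test, Benjamini-Hochberg adjusted p under 0.05 over 19498 genes). The median log2 change was -0.98 for the 33 genes and 0.04 for all genes tested, and the range ran from -1.32 for PSBTN to 0.09 for FD1. The median by complex was -1.11 in photosystem I, -0.94 in photosystem II and -0.98 in plastocyanin. It was -0.50 in ferredoxin, -0.43 in the ATP synthase, -0.40 in cytochrome b6f and -0.23 in FNR. These medians were not tested against each other. Within the 4 code sets the median over the 33 genes was -1.12, -1.15, -0.95 and -0.84, and 22, 32, 30 and 25 genes were called lower in them.

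All 12 photosystem I genes fell at 2 and at 5 mM, where 20.9% and 21.6% of all genes were called lower. PSAE1, a stromal subunit at the ferredoxin docking site, ranged from 243.7 to 1008 normalised CPM (median 684.3) in high light at 5 mM and from 1615 to 2765 (median 2518) in low light at 5 mM. No high light library reached the lowest low light library, and the log2 change was -1.90 ± 0.28 (SE, edgeR adjusted p = 5.13e-08). At 2 mM PSAE1 ranged from 360.5 to 1202 (median 525.2) in high light and from 548.4 to 2850 (median 2369) in low light, and these ranges overlapped, with replicate 2 of the low light group at 548.4. PSAG and PSAK, subunits at the antenna side, fell by 1.89 ± 0.32 and 1.74 ± 0.30 on the log2 scale at 5 mM (edgeR adjusted p = 1.97e-06 and 1.9e-06). The smallest change at 5 mM was that of PSAH1, one of the genes for the subunit where light-harvesting complex II docks in state transitions, at -0.79 ± 0.20 (edgeR adjusted p = 0.00113). PSAE1 and PSAG overlap genes on the other strand, by 436 bases (AT4G28755) and 479 bases (AT1G55673), and the strand setting of the counting is not given.

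Photosystem II genes spread more widely. PSBTN, a very small subunit, ranged from 56.13 to 392.1 normalised CPM (median 268.4) in high light at 5 mM and from 535.5 to 1260 (median 1180) in low light, without overlap, a log2 change of -2.10 ± 0.37 (SE, edgeR adjusted p = 3.92e-06). PSBO2 and PSBQ1, both for extrinsic proteins of the oxygen-evolving complex, had log2 changes of -2.02 ± 0.30 and -2.03 ± 0.37 at that dose (edgeR adjusted p = 1.16e-07 and 6.49e-06). PSBR, the highest of the 33 per kilobase of exon, changed least of the 10 at 5 mM. It ranged from 2291 to 4128 (median 3786) in high light and from 3273 to 5217 (median 4873) in low light at 5 mM, with overlap and a log2 change of -0.39 ± 0.16 (edgeR adjusted p = 0.0443). At 10 mM PSBR and PSBQ2 did not pass the test (-0.25 ± 0.16 and -0.66 ± 0.27, edgeR adjusted p = 0.268 and 0.062). The other 8 photosystem II genes fell at that dose, where 10.8% of all genes were called lower.

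Between the photosystems, the carriers and the cytochrome complex did not move alike. PETM, a small subunit of cytochrome b6f, ranged from 344.9 to 531.2 normalised CPM (median 466.3) in high light at 5 mM and from 466.1 to 856.2 (median 775.1) in low light, a log2 change of -0.70 ± 0.16 (edgeR adjusted p = 0.000299) with overlapping ranges. PETC, the Rieske iron-sulphur protein of that complex, changed by -0.47 ± 0.19 at 5 mM (adjusted p = 0.0377). PETE2, the major plastocyanin gene, ranged from 478.1 to 1559 (median 1249) in high light and from 1585 to 4189 (median 3626) in low light at 5 mM, without overlap, and changed by -1.59 ± 0.31 (adjusted p = 2.1e-05). Averaged over doses, PETC and PETM fell by 0.34 ± 0.09 and 0.45 ± 0.08, against 0.93 ± 0.13 for PETE1 and 1.04 ± 0.15 for PETE2, all on the log2 scale and all with an edgeR adjusted p under 0.05.

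At the end of the chain, FD1 and both FNR genes changed least with light. FD2, the main ferredoxin gene of leaves, ranged from 440.8 to 1008 normalised CPM (median 630.8) in high light at 2 mM and from 498.6 to 2795 (median 2051) in low light, a log2 change of -1.49 ± 0.30 (SE, edgeR adjusted p = 7.83e-05). Its ranges overlapped at that dose. FD1 ranged from 165.4 to 397.1 (median 234.8) in high light and from 151.4 to 355.2 (median 256.5) in low light at 2 mM, with a change of -0.03 ± 0.20 (adjusted p = 0.916). At 20 mM FD1 was the one gene of the 33 with an unadjusted p under 0.05, at 321 to 603.6 (median 420.6) in high light and 250.3 to 374.4 (median 293.1) in low light, with a log2 change of 0.49 ± 0.20 and an edgeR adjusted p of 0.146. FNR1 fell by 0.22 ± 0.09 averaged over doses (adjusted p = 0.0331), and FNR2 had a change of -0.23 ± 0.11 that did not pass (adjusted p = 0.0522). The summed FNR level at 5 mM in high light was 0.789 times that in low light with TMM scaling but 1.01 times with scaling to the library total, so its direction depends on the scaling at this dose, and likewise at 10 mM (0.855 and 1.02).

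Of the ATP synthase genes, ATPD (the delta subunit, which ties the catalytic head to the peripheral stalk) had a light change as large as those of photosystem genes, with 241.1 to 593.1 normalised CPM (median 488.7) in high light and 771.2 to 1930 (median 1633) in low light at 5 mM. Those ranges did not overlap, and the log2 change was -1.71 ± 0.32 (SE, edgeR adjusted p = 9.99e-06). ATPC1, the gamma subunit whose thiols switch the enzyme on in light, changed by -0.64 ± 0.20, and ATPG, a subunit of the peripheral stalk, by -0.52 ± 0.16 (adjusted p = 0.00679 and 0.00549). ATPG ranged from 446.6 to 788 (median 617.1) in high light and from 620.3 to 1018 (median 945.3) in low light at 5 mM, with overlap.

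**Figure D2:**
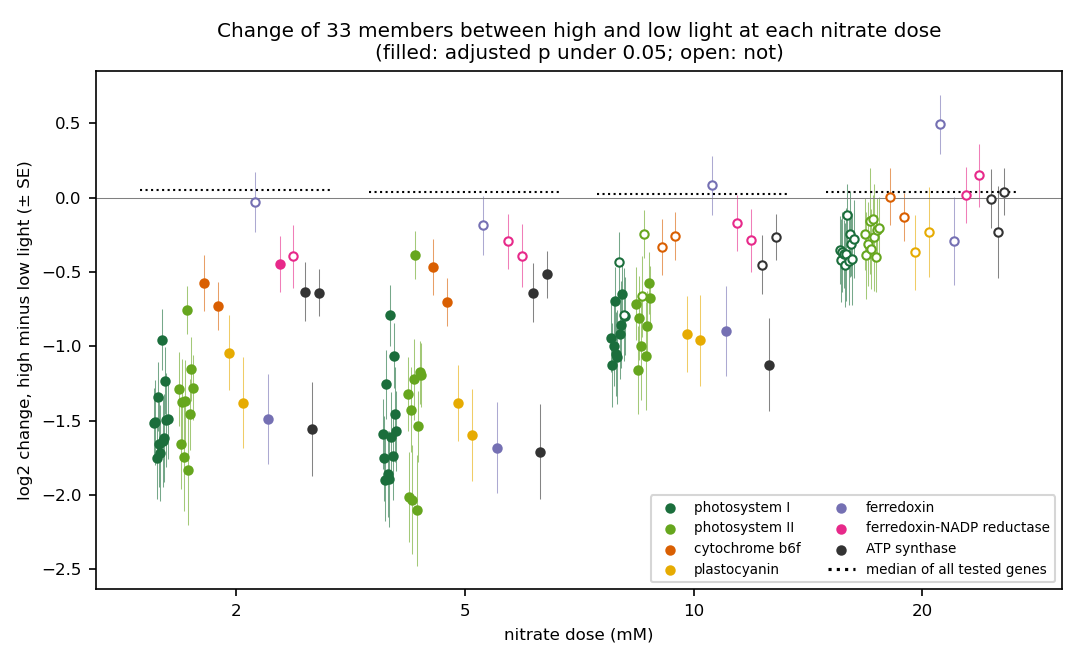
Log2 change of each of the 33 genes in high relative to low light (± SE from edgeR) at 2, 5, 10 and 20 mM nitrate, with filled points for adjusted p under 0.05 and a dotted line at the median of all genes tested. The points of most genes lie far below 0 at 2 and 5 mM and close to 0 at 20 mM.

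Fewer of the genes were called for light as nitrate increased. At 2, 5, 10 and 20 mM nitrate, 31, 30, 22 and 0 of the 33 genes were called lower in high light than in low light, against 20.9%, 21.6%, 10.8% and 1.39% of all genes tested. The median log2 changes at these doses were -1.37, -1.43, -0.80 and -0.27, beside medians for all genes of 0.05, 0.04, 0.02 and 0.04. At 20 mM edgeR called 0 genes in either direction (2.39% of all genes were called higher), 0 were lower and 1 was higher at an unadjusted p under 0.05, and DESeq2 and limma-voom also called 0 lower. All 8 high light libraries lay below all 8 low light libraries in 20 of the 33 genes at 5 mM, where this held for 4.43% of all genes, and in 0 of 33 at 2, 10 and 20 mM (1.33%, 1.17% and 0.492% of all genes). Without the 6 libraries named above, the light levels were apart in 27 genes at 2 mM (5.79% of all genes), 20 at 5 mM (4.62%), 22 at 10 mM (3.97%) and 0 at 20 mM. Those libraries were picked by these same 33 genes, which favours less overlap here, so the shares of all genes are not a like comparison. Calls within single code sets, each with 2 libraries a group, were fewer at some doses, and the medians within the 4 sets were -1.01, -1.59, -1.48 and -1.39 at 2 mM and -0.37, -0.63, -0.19 and 0.03 at 20 mM.

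Mid light was set against both extremes at each dose, and its differences were not tested between doses. In mid light relative to low light, 30 of 33 genes fell at 2 mM (10.6% of all genes called lower, median log2 change -1.0) and 0 passed at 5 mM (1.26%, median -0.38), where 0 were below an unadjusted p of 0.05 and DESeq2 and limma-voom also called 0. In high light relative to mid light, edgeR called 0 genes lower at 2 mM (8.32% of all genes, median -0.36) and 25 lower at 5 mM (9.02%, median -1.02). The 30 calls of mid against low light at 2 mM were 0 within each of code sets 1, 3 and 4, where the median changes were -1.17, -0.67 and -0.49, beside -2.28 in set 2. At 2 mM the median of high relative to mid light was 0.17, 0.72, -0.70 and -0.84 in sets 1 to 4 and -0.04 without replicate 7 of mid light. At 2 mM in that comparison 1 gene was lower and 1 higher at an unadjusted p under 0.05, DESeq2 and limma-voom called 0, and edgeR called 10 without code set 1. At 10 mM, 12 genes were called lower in high than in mid light (4.12%, median -0.75), and the count was 29 without replicate 8 of high light with 10 mM, 22 without replicate 2 of low light with 2 mM, 21 without replicate 7 of mid light with 2 mM, 21 without replicate 2 of mid light with 5 mM and 29 with a term for code set. Averaged over doses, 28 genes fell in high relative to mid light (17.6%) and 21 in mid relative to low light (9.57%).

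**Figure D3:**
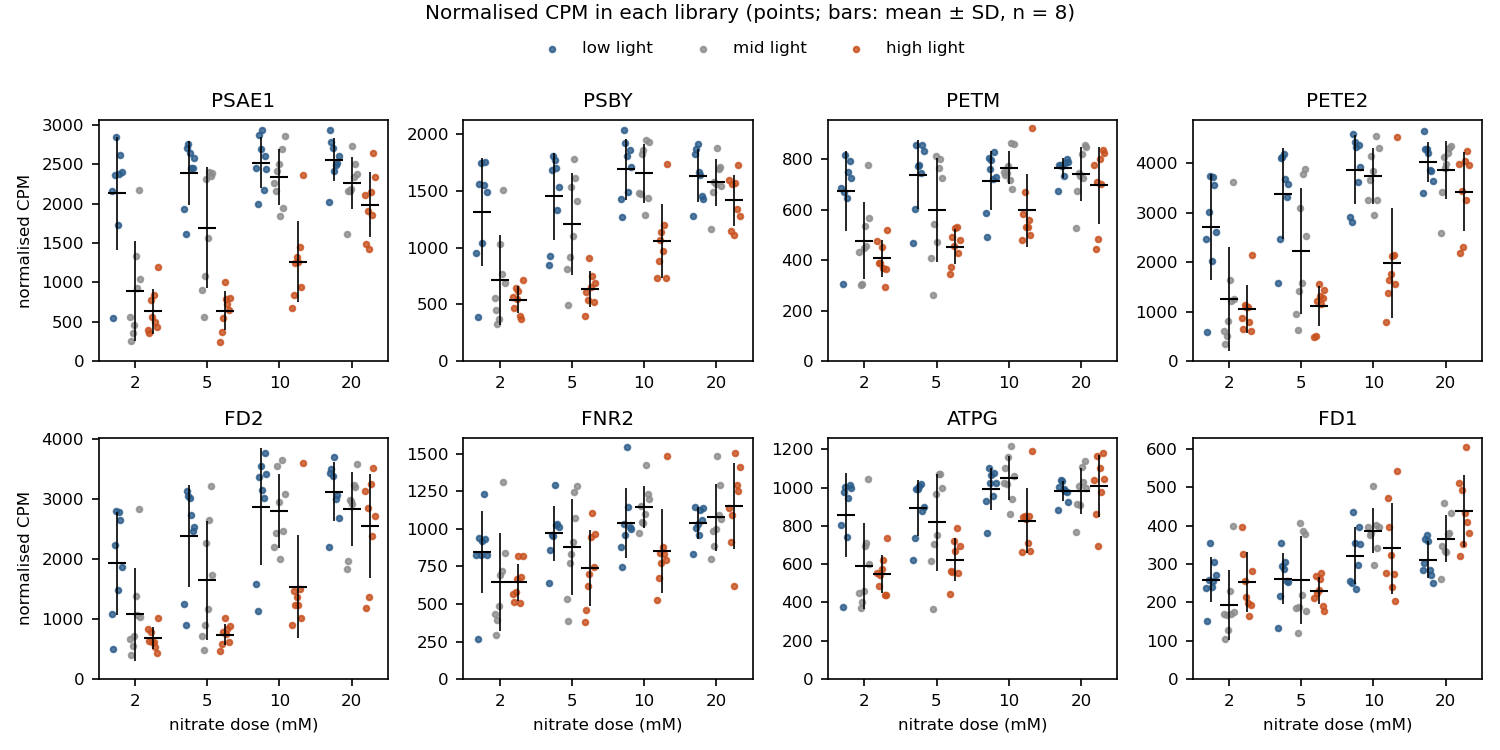
Normalised CPM of PSAE1, PSBY, PETM, PETE2, FD2, FNR2, ATPG and FD1 in each of the 96 libraries, by nitrate dose (horizontal axis) and light level (low, mid and high side by side). At 5 mM the high light points of PSAE1 (243.7 to 1008) lie below all low light points (1615 to 2765), and at 20 mM the light levels overlap.

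Transcripts of every subunit gene were more abundant at 20 than at 2 mM nitrate when light levels were pooled. Averaged over the 3 light levels, 33 of 33 genes rose at 20 mM relative to 2 mM, where 28.7% of all genes were called higher, with a median log2 change of 0.93 beside -0.06 for all genes. The changes ran from 0.46 ± 0.09 for PSBR to 1.51 ± 0.21 for PSBQ1. ATPD (1.44 ± 0.18), FD2 (1.33 ± 0.17), PSBTN (1.32 ± 0.21) and PETE2 (1.30 ± 0.18) followed, and PETM (0.53 ± 0.09), FNR1 (0.59 ± 0.11) and ATPG (0.60 ± 0.09) were near the low end (log2 change ± SE). FD1, for which light made no difference past the test, rose by 0.66 ± 0.12 with nitrate (edgeR adjusted p = 1.1e-06). Within the 4 code sets the median change was 1.58, 1.14, 0.95 and 0.60, with 33, 33, 33 and 1 genes called higher.

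The response to nitrate was seen in mid and high light. In high light all 33 genes rose at 20 relative to 2 mM (24.7% of all genes called higher, median log2 change 1.39), and in mid light all 33 rose (21.2%, median 1.15). In low light edgeR called 0 of 33 (3.54%, median 0.30), 2 were higher at an unadjusted p under 0.05, 2 were called with a term for code set, and DESeq2 and limma-voom called 0. PSBQ1 ranged from 724.8 to 1403 normalised CPM (median 1146) at 20 mM in high light and from 139.8 to 484.6 (median 213.6) at 2 mM, without overlap, a log2 change of 2.18 ± 0.37 (SE, edgeR adjusted p = 2.72e-06). In low light PSBQ1 ranged from 875.9 to 1468 (median 1264) at 20 mM and from 153.7 to 1221 (median 925.1) at 2 mM, with overlap and a change of 0.59 ± 0.36 (adjusted p = 0.29). In high light the 2 sets of 8 libraries did not overlap in 21 of 33 genes, which held for 4.48% of all genes, and in 0 genes in mid and low light (0.785% and 0.867%). Without the 6 libraries, this count was 33 in mid light (10.3% of all genes), 21 in high light and 0 in low light (1.27%). Here too the libraries left out were picked by these 33 genes, so the shares of all genes are not a like comparison. The low light median within the 4 code sets was 1.11, 0.16, 0.30 and 0.03, and it was 0.17 without replicate 2 of low light with 2 mM.

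**Figure D4:**
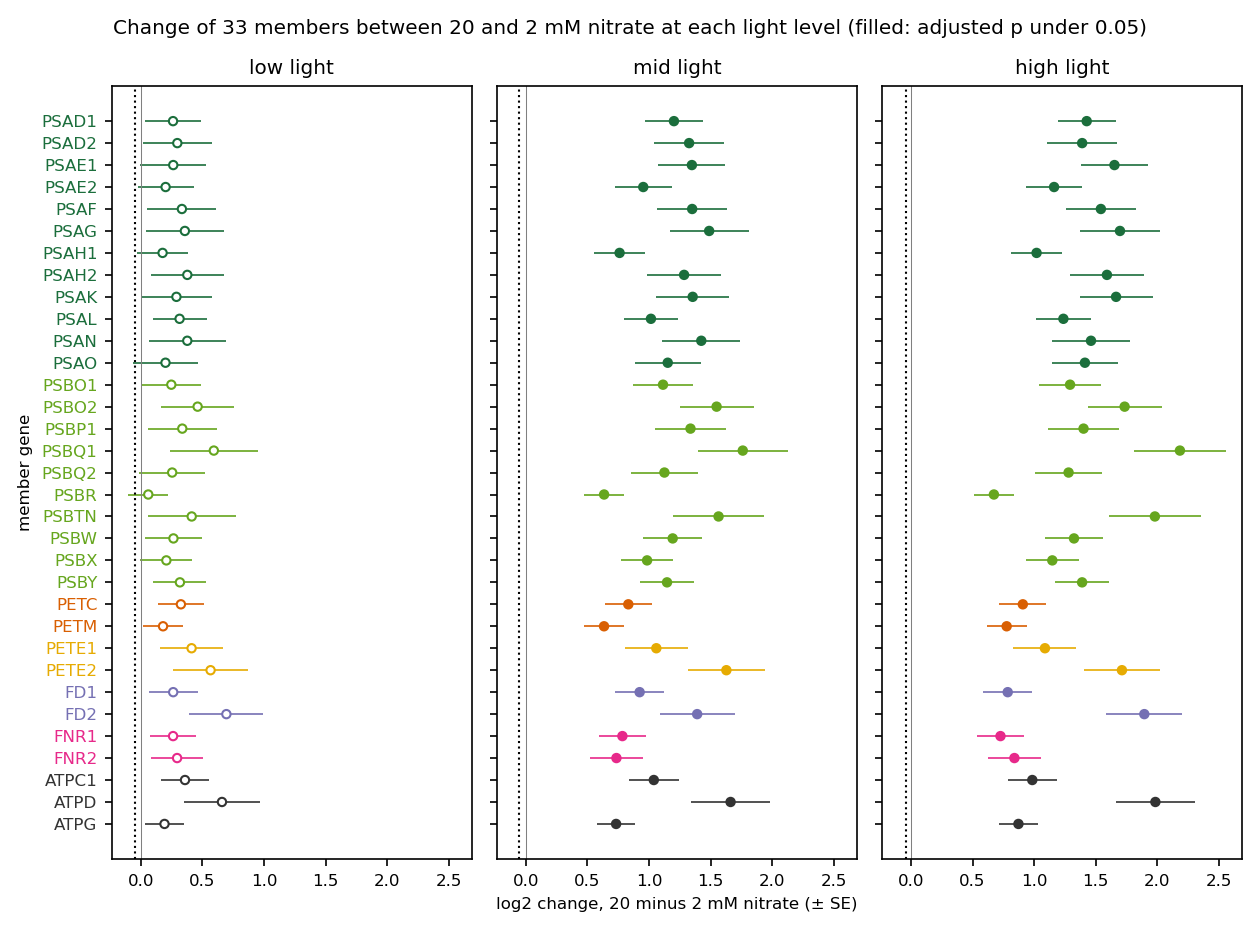
Log2 change at 20 relative to 2 mM nitrate (± SE from edgeR) of the 33 genes in low, mid and high light, with filled points for adjusted p under 0.05. All 33 points are filled in mid and high light and none in low light, where the median is 0.30.

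The dose step with the most calls was not the same at each light level, and the steps were not tested against each other. From 2 to 5 mM, 17 genes rose in mid light (2.18% of all genes called higher, median log2 change 0.84), while 0 passed in low light (0.00513%, median 0.17, 0 at an unadjusted p under 0.05) and 0 in high light (2.52%, median 0.11, 1 at an unadjusted p under 0.05), by edgeR. The count of 17 became 33 without replicate 7 of mid light with 2 mM, 29 without replicate 2 of mid light with 5 mM, 30 without code set 1, 29 with a term for code set and 8 with no filter on low counts. From 5 to 10 mM, 5 genes rose in high light (1.68%, median 0.75), 0 in mid light (0.539%, median 0.46, 11 at an unadjusted p under 0.05) and 0 in low light (0%, median 0.14, 0 unadjusted), by edgeR. The count of 5 became 0 without replicate 8 of high light with 10 mM, 0 without replicate 1 of high light with 5 mM, 9 without replicate 2 of mid light with 5 mM, 11 without replicate 2 of low light with 2 mM, 12 without replicate 7 of mid light with 2 mM, 19 without code set 1 and 25 with a term for code set. From 10 to 20 mM edgeR called 0 genes at any light level, with 17 below an unadjusted p of 0.05 in high light (2.25% of all genes called higher, median 0.47) and 0 in mid and low light (0% and 0%). That step had a median of -0.06 in mid light, where 27 genes had a negative change, and 0.01 in low light, where 14 did. Averaged over light, 3 genes rose from 2 to 5 mM (2.34%), 26 from 5 to 10 mM (6.68%) and 0 from 10 to 20 mM (0.133%), where 0 passed an unadjusted p of 0.05 and DESeq2 and limma-voom called 0. The count of 26 was 8 without replicate 8 of high light with 10 mM, 13 without replicate 2 of mid light with 5 mM and 15 without replicate 1 of high light with 5 mM. The count of 3 was 32 without replicate 7 of mid light with 2 mM, 0 without replicate 2 of low light with 2 mM, 15 without replicate 2 of mid light with 5 mM, 9 without replicate 1 of high light with 5 mM, 28 without code set 1 and 26 with a term for code set.

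The difference between light levels in the nitrate response was itself tested. For the change at 20 relative to 2 mM in high light minus that in low light, 11 of 33 genes had a positive difference past the test, against 4.39% of all genes, and 29 had an unadjusted p under 0.05. They were PSAD1, PSAE1, PSAK and PSAO of photosystem I, PSBO2, PSBQ1, PSBTN, PSBW, PSBX and PSBY of photosystem II, and ATPG of the ATP synthase. The differences among them ran from 0.68 ± 0.22 for ATPG to 1.59 ± 0.51 for PSBQ1 on the log2 scale (edgeR adjusted p = 0.0483 and 0.0429), and the median over all 33 genes was 1.06 beside 0.01 for all genes tested. FNR1 (0.46 ± 0.27), FD1 (0.52 ± 0.28), FNR2 (0.54 ± 0.30) and PETE1 (0.67 ± 0.36) had differences whose unadjusted p was not under 0.05. An F test over all 6 interaction terms called 14 of the 33 genes, against 12.7% of all genes. Counts of calls are sensitive here: the 11 became 28 without replicate 2 of low light with 2 mM, 19 without replicate 7 of mid light with 2 mM, 18 without replicate 2 of mid light with 5 mM, 31 without code set 1, 26 with a term for code set, 19 in DESeq2 and 3 in limma-voom. The 14 of the F test became 28 without replicate 2 of low light with 2 mM, 29 without replicate 7 of mid light with 2 mM, 28 without code set 1 and 29 with a term for code set. Within the 4 code sets the median difference was 0.56, 0.92, 1.19 and 1.33, with 0, 0, 4 and 0 genes called. The shares of all genes called in these settings are not given, so the moved counts cannot be set against them.

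The paralogous pairs allow a comparison inside each library that does not depend on its depth or scaling. The log2 ratio of the 2 counts of a pair was compared between light levels and between doses with permutation tests within the strata of the other factor, adjusted over 16 tests. Reads of the paralogues could be told apart, since coding identity was 60.3% to 87.0% and no stretch of 50 bases was shared by the transcripts of any pair. Of the 8 ratios, 6 differed between high and low light and 7 between 20 and 2 mM nitrate, and the size differed by pair. The FNR ratio passed neither test. Without code set 1 the nitrate difference of PSAD1 to PSAD2 (-0.12) was -0.0257 and no longer passed (permutation test, adjusted p = 0.628), and the light difference of PETE1 to PETE2 was 0.19 and did (adjusted p = 0.0203).

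Ferredoxin showed the largest shift. The log2 ratio of FD1 to FD2 averaged -1.92 ± 0.57 in high light and -3.07 ± 0.47 in low light (SD over 32 libraries each) and so differed by 1.14 (two-sided permutation test, adjusted p = 1.6e-05, from the smallest p that 100000 resamples can give). The count of FD1 relative to FD2 was 0.368 in high light and 0.149 in low light at 2 mM, and 0.180 in high light and 0.1 in low light at 20 mM. The ratio still differed between light levels at 20 mM, where edgeR called 0 of the 33 genes lower or higher (1.39% and 2.39% of all genes). Those calls come from another test, adjusted over all tested genes, and are not a like comparison. The differences in the FD1 to FD2 ratio were 1.30, 1.45, 0.97 and 0.84 at 2, 5, 10 and 20 mM, each with an exact permutation p (adjusted over 56 tests) of 0.00145, 0.00174, 0.00399 and 0.00145. At 20 relative to 2 mM the ratio fell, to -2.91 ± 0.47 at 20 mM against -2.18 ± 0.70 at 2 mM (n = 24 each), a difference of -0.73 (permutation test, adjusted p = 1.6e-05). Within the 4 code sets the light difference was 1.04, 1.25, 1.29 and 0.99. FD1 shares 78 bases with AT1G10950 on the same strand, and reads from those bases cannot be told apart.

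In photosystem I, the count of PSAH1 drew level with that of PSAH2 at low nitrate in high light. Their log2 ratio averaged -0.01 ± 0.27 in high light at 2 mM and -0.69 ± 0.28 in low light at 2 mM (SD, n = 8 each, exact permutation test, adjusted p = 0.00193). At 20 mM it averaged -0.64 ± 0.17 in high light and -0.97 ± 0.09 in low light, a difference of 0.33 (exact permutation test, adjusted p = 0.00174). PSAH1 shares 788 bases with a gene on the other strand, AT3G16130, and PSAH2 shares 174 bases with AT1G52240, also on the other strand. The strand setting of the counting is not given, so the reads of these genes may not have been told apart. PSAE2, the less abundant of its pair, gained on PSAE1 in high light, as PSAH1 did on PSAH2. The log2 ratio of PSAE1 to PSAE2 was 1.78 ± 0.29 in high light and 2.13 ± 0.11 in low light (n = 32 each, permutation test, adjusted p = 1.6e-05). At 20 mM its difference between high and low light was 0.01 (exact permutation test, adjusted p = 0.847). PSAD1 and PSAD2 moved least of the pairs past the test, by 0.12 with light (0.84 ± 0.21 in high light and 0.72 ± 0.11 in low light, permutation test, adjusted p = 0.00853), and within code sets that difference was 0.24, 0.10, 0.067 and 0.065. By dose it was -0.006, 0.19, 0.23 and 0.06 at 2, 5, 10 and 20 mM. Only the difference at 10 mM passed (exact permutation test, adjusted p = 0.0063).

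In photosystem II, the more abundant gene of both the PSBO and the PSBQ pair gained on the other in high light, taken over all doses. PSBO1 gained on PSBO2 in high light, with a log2 ratio of 2.03 ± 0.30 in high light and 1.63 ± 0.18 in low light (SD, n = 32 each, permutation test, adjusted p = 1.6e-05). At 2 mM this difference was 0.28 and did not pass (exact permutation test, adjusted p = 0.0572), while those at 5, 10 and 20 mM did. PSBQ1 lost against PSBQ2, with -1.53 ± 0.51 in high light and -1.19 ± 0.26 in low light (permutation test, adjusted p = 4.36e-05). At 20 mM the PSBQ difference had the other sign, -0.84 ± 0.15 in high light and -1.03 ± 0.16 in low light (n = 8 each, a difference of 0.19, exact permutation test, adjusted p = 0.0459). The nitrate difference of this pair was the largest in size among the 8, with -0.91 ± 0.20 at 20 mM and -1.68 ± 0.39 at 2 mM, a difference of 0.76 (n = 24 each, permutation test, adjusted p = 1.6e-05). Within the 4 code sets the light difference was 0.21, 0.49, 0.49 and 0.42 for PSBO and -0.12, -0.39, -0.47 and -0.41 for PSBQ.

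The soluble carriers other than ferredoxin kept closer ratios in the light comparison. The ratio of PETE1 to PETE2 averaged -3.76 ± 0.40 in high light and -3.87 ± 0.28 in low light (SD, n = 32 each, difference 0.11, permutation test, adjusted p = 0.174). With nitrate PETE2 gained on PETE1, with a ratio of -4.06 ± 0.23 at 20 mM and -3.56 ± 0.38 at 2 mM (n = 24 each, permutation test, adjusted p = 1.6e-05). The FNR1 to FNR2 ratio was 0.12 ± 0.25 in high light and 0.10 ± 0.19 in low light (difference 0.03, adjusted p = 0.646), and 0.06 ± 0.20 at 20 mM and 0.09 ± 0.21 at 2 mM (difference -0.03, adjusted p = 0.626), by the same permutation tests.

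**Figure D5:**
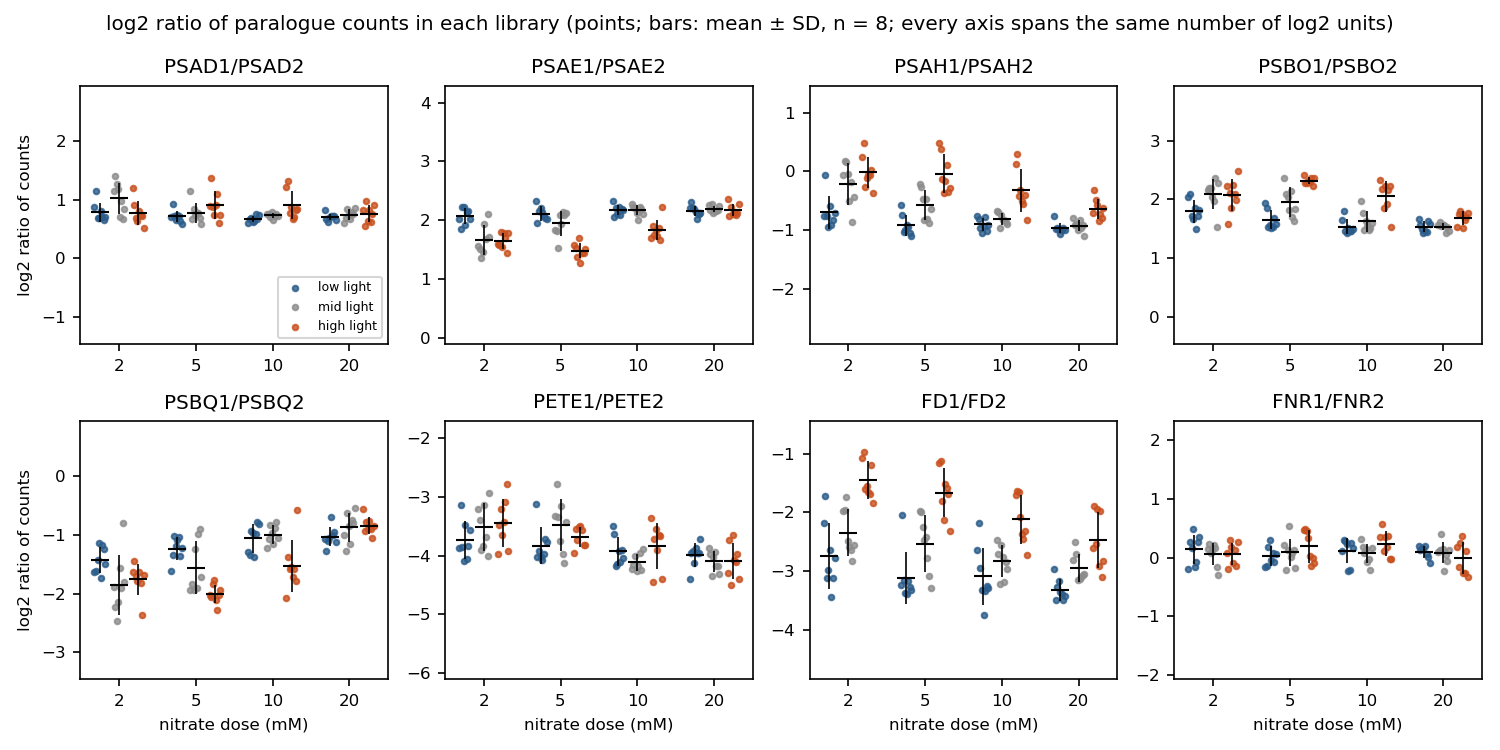
Log2 ratio of the counts of each paralogous pair in every library by nitrate dose, with low, mid and high light side by side, on axes that each span the same number of log2 units. FD1/FD2 is higher in high light than in low light at each dose (differences 1.30, 1.45, 0.97 and 0.84), and FNR1/FNR2 shows no such shift.

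The spread between libraries of 1 group varied. At 2, 5, 10 and 20 mM the median SD of the 33 genes on the log2 scale was 0.47, 0.58, 0.54 and 0.31 in high light, 0.89, 0.74, 0.22 and 0.23 in mid light and 0.75, 0.39, 0.24 and 0.16 in low light. Without the 6 libraries it was 0.27 in low light at 2 mM, 0.73 and 0.51 in mid light at 2 and 5 mM, 0.14 in mid light at 20 mM, and 0.38 and 0.41 in high light at 5 and 10 mM. By gene, the pooled SD within groups ran from 0.32 for ATPG to 0.77 for PSBTN. In mid light at 2 mM PSBTN ranged from 58.54 to 1106 normalised CPM, a spread that reaches from below the lowest high light library (106.8) to near the highest low light library (1257) at that dose. Without replicate 7 the mid light range ended at 593.3.

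Outside the subunits, 53 genes for assembly, repair and regulation of the thylakoid complexes were listed from general knowledge. Averaged over doses, 33 of 53 fell and 7 rose in high relative to low light (28.7% of all genes called lower, 33.8% higher), with a median log2 change of -0.28, smaller in size than the -0.98 of the subunits. PSB27, a photosystem II repair factor, fell by 1.15 ± 0.15 and TROL, which tethers FNR to the thylakoid, by 0.72 ± 0.10. ALB3, a membrane insertase, fell by 0.54 ± 0.08, and PGRL1B, a component of cyclic electron flow around photosystem I, rose by 0.60 ± 0.07 (log2 change ± SE, edgeR adjusted p = 8.49e-13). At 20 relative to 2 mM, 45 of 53 rose and 3 fell (28.7% of all genes called higher, 34.6% lower), with a median of 0.59. Those that rose included PSB33 (0.93 ± 0.11), PSB27 (1.30 ± 0.17), CCB1 (0.90 ± 0.12) and TROL (0.85 ± 0.11).

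Markers of other leaf cell types also differed between the groups. In high relative to low light averaged over doses, where 28.7% of all genes were called lower and 33.8% higher, 4 of 5 epidermis markers fell, with summed levels of 48.1 to 287 normalised CPM in high light libraries and 128 to 658 in low light libraries. Of 4 guard cell markers edgeR called 0, with 1 lower at an unadjusted p under 0.05 (summed levels of 62.3 to 187 in high light and 57.3 to 204 in low light). Of 5 vascular markers 3 fell and 1 rose (144 to 448 in high light and 187 to 421 in low light). At 20 relative to 2 mM averaged over light, where 28.7% of all genes were called higher and 34.6% lower, 3 of 5 epidermis markers rose (median sums of 316.6 at 20 mM and 159.2 at 2 mM). Of the vascular markers 3 rose and 1 fell (303.7 at 20 mM and 293 at 2 mM), and edgeR called 0 of 4 guard cell markers, with 0 at an unadjusted p under 0.05. None of these markers was at 0 summed over any light level, and the part of cell type in the subunit results was not tested.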

How the data were processed

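The 96 libraries were assigned to 12 groups of 8 from their sample titles, and the columns of the table from the library codes in the descriptions, and 0 columns were unmatched. The table as deposited by the authors holds unnormalised counts of reads for each locus. Per the labels' protocols, the library kit was Kapa stranded mRNA. Per the submitters' processing notes, reads were aligned with STAR 2.5.3a to TAIR10 and counted with featureCounts, whose version, strand setting and annotation release these sources do not give. Whether reads of overlapping genes were told apart is therefore not known, and 11 of the 33 genes overlap another annotated gene (by 2 to 788 bases). The rows for chloroplast genes were not analysed here.

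The 33 genes, the pairs and the lists were chosen with earlier results of these data known. Every gene was named under a rule that allowed all 33 members, up to 4 thylakoid factors with the smallest p per contrast, and marker lists by summed level. Of 28025 loci with a count, filterByExpr kept 19498. Counts were scaled by TMM (factors 0.766 to 1.35) and modelled in R 4.3.3 by edgeR 4.0.16 (robust quasi-likelihood, a mean for each of the 12 groups, 84 residual degrees of freedom, common biological coefficient of variation 0.424). A gene was called at a Benjamini-Hochberg adjusted p under 0.05 over all tested genes, and each SE equals the size of the log2 change over the square root of F. Shares of counts use the library total. Ratios of paralogues used counts plus 0.5 and two-sided permutation tests (100000 resamples, smallest p 1e-05, 16 tests; 8 against 8 exact, 56 tests). Each library is a separate plant. The main fit and the permutation tests held no term for code set. Their p-values thus measure the spread between libraries of a group, which includes differences between code sets. Chi-square per degree of freedom was at least 6.46 in the 336 pairs of libraries that share a group.

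Alternatives were RLE factors, no filter, limma-voom (limma 3.58.1), DESeq2 1.42.0, blocks of replicate number or code set, single code sets, a pseudocount of 5 and, added after seeing the data, leaving out each of 6 libraries at one end of their group in at least 32 of 33 genes. Motifs, coordinates and coding identity came from RefSeq TAIR10.1 (Python 3.11.15). The main edgeR fit was run on simulated counts with known changes in light, in nitrate and in the difference of nitrate changes. That run left out the F test, and its counts held no differences between code sets. Its outcome is not reported here.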

Additional observations from a re-analysis of the deposited data

Results flagged for a closer look

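In groups of 8 plants, 24 of 180 combinations of gene or ratio and group held a library farther from the rest than Dixon's 95% criterion allows. The genes were PSAE1, PSBY, PETM, PETE2, FD2, FNR2 and ATPG, each with the smallest interaction p of its complex, and the ratios were those of the 8 pairs. These combinations share libraries and are not independent, so the rate of 1 in 20 for a single test is no yardstick here. Replicate 8 of high light with 10 mM nitrate accounts for 9 of them, all in the direction of low light plants. Its normalised CPM was 2369 for PSAE1, against 678 to 1456 in the other 7 plants, 1740 for PSBY (others 728.7 to 1197), 922.3 for PETM (others 478.9 to 667.9) and 4521 for PETE2 (others 786.9 to 2145). It was also 3600 for FD2 (others 900.3 to 1498), 1484 for FNR2 (others 528.6 to 881.6) and 1192 for ATPG (others 664.1 to 849.7). Its log2 ratios were 2.22 for PSAE1 to PSAE2 (others 1.67 to 1.90) and -0.57 for PSBQ1 to PSBQ2 (others -2.08 to -1.37).

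Replicate 2 of low light with 2 mM stood on the other side. It had 305.9 normalised CPM for PETM (others 646.9 to 816.3), 265 for FNR2 (others 823 to 1233) and 374.6 for ATPG (others 742.1 to 1012), and log2 ratios of 1.14 for PSAD1 to PSAD2 (others 0.66 to 0.88) and -0.0645 for PSAH1 to PSAH2 (others -0.94 to -0.59). Replicate 7 of mid light with 2 mM had 3618 for PETE2 (others 345 to 1639), 2832 for FD2 (others 401.6 to 1376) and a log2 ratio of 1.53 for PSBO1 to PSBO2 (others 1.97 to 2.37). Replicate 8 of high light with 2 mM had 2142 for PETE2 (others 613.8 to 1124).

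The remaining distant values were single ratios. In low light with 5 mM, replicate 2 had 0.92 for PSAD1 to PSAD2 (others 0.59 to 0.74) and -2.05 for FD1 to FD2 (others -3.39 to -3.14), and replicate 1 had -3.12 for PETE1 to PETE2 (others -4.07 to -3.72). Replicate 1 of mid light with 5 mM had 1.15 for PSAD1 to PSAD2 (others 0.58 to 0.83), replicate 1 of low light with 20 mM had -0.77 for PSAH1 to PSAH2 (others -1.06 to -0.97), and replicate 7 of high light with 2 mM had -2.36 for PSBQ1 to PSBQ2 (others -1.82 to -1.45).

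In 11 genes the change at 20 relative to 2 mM nitrate was larger in high light than in low light by a test of the difference itself (edgeR interaction contrast, Benjamini-Hochberg adjusted p under 0.05). The same test called 4.39% of all genes in that direction. The log2 differences were 1.16 for PSAD1, 1.39 for PSAE1, 1.38 for PSAK, 1.21 for PSAO, 1.27 for PSBO2, 1.59 for PSBQ1, 1.57 for PSBTN, 1.06 for PSBW, 0.94 for PSBX, 1.07 for PSBY and 0.68 for ATPG.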

How the results depend on the processing

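Of the counts of subunit genes called, those for high against low light averaged over doses (30 to 32 genes called lower) and 20 against 2 mM averaged over light (33 called higher) changed little under RLE factors, no filter, limma-voom, DESeq2, either block, without code set 1 or without any of the 6 distant libraries. The paralogue ratios kept their direction and call with a pseudocount of 5 in all 16 tests. Counts near the threshold moved more, and the cause was not tested. Shares of all genes called under these alternatives are not given, so a moved count cannot be told apart from a move over all genes.

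With no filter on low counts, genes called lower in high against mid light at 10 mM numbered 7, and genes called higher numbered 8 for 5 against 2 mM in mid light, 2 for 10 against 5 mM in high light, 1 for 5 against 2 mM averaged over light and 5 for the high-minus-low-light difference of nitrate changes. DESeq2 gave 21 for high against mid light at 10 mM, 14 for 10 against 5 mM in high light and 19 for the difference of nitrate changes. For 10 against 5 mM in high light RLE gave 8 and limma-voom 2, and for the difference of nitrate changes limma-voom gave 3. The summed FNR level in high over low light was above 1 at 5 and 10 mM with the library total, but 0.789 and 0.855 with TMM and 0.766 and 0.846 with RLE.

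No label ties a replicate number to a shared source, but the numbers follow the code sets, 2 numbers a set, except for replicates 6 and 7 of low light with 20 mM. Deviations from group means correlated at a mean of 0.206 between libraries of the same number and -0.0206 of other numbers, with 363 of 528 same-number pairs over 0.1 and a minimum of -0.498. For code sets the means were 0.213 within a set and -0.0606 between sets. As not every pair correlated, the replicate block was fitted as an alternative only. With the replicate block, calls numbered 29 for high against mid light at 10 mM, 2 for 20 against 2 mM in low light, 29 for 5 against 2 mM in mid light, 24 for 10 against 5 mM in high light, 25 for 5 against 2 mM averaged over light, 23 for the difference of nitrate changes and 28 for the F test of all interaction terms. Of 96 libraries 29 correlated best with their own number. A block of code sets gave 29, 2, 29, 25, 26, 26 and 29 for the same 7 counts. No other call count moved by over 1.5 times under these blocks.

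Leaving out each of the 6 distant libraries in turn gave 12 to 29 calls for high against mid light at 10 mM, 17 to 33 for 5 against 2 mM in mid light, 0 to 12 for 10 against 5 mM in high light, 0 to 32 for 5 against 2 mM averaged over light, 8 to 26 for 10 against 5 mM averaged over light, 11 to 28 for the difference of nitrate changes and 13 to 29 for the F test. Without code set 1 the calls were 10 for high against mid light at 2 mM, 30 for 5 against 2 mM in mid light, 19 for 10 against 5 mM in high light, 28 for 5 against 2 mM averaged over light, 31 for the difference of nitrate changes and 28 for the F test. In that setting the FD1 light change averaged over doses was -0.10, the FNR1/FNR2 light difference -0.0205, the PSAD1/PSAD2 nitrate difference -0.0257 (0.10 in high light) and the PETE1/PETE2 light difference 0.19, now past the test.

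Single code sets hold 2 libraries a group, and code set 2 gave more calls than all 96 libraries by over 1.5 times in 4 counts. In code set 1, genes called lower in high against low light numbered 0 at 2 mM, 16 at 5 mM and 2 at 10 mM. Code set 3 gave 0 at 10 mM, and code set 4 gave 0, 13 and 0 at these doses. For mid against low light averaged over doses, sets 1, 3 and 4 gave 0 and set 2 gave 32, and at 2 mM sets 1, 3 and 4 gave 0. For high against mid light averaged over doses, sets 1, 2 and 4 gave 0, 3 and 9. At 5 mM sets 1 to 4 gave 0, 0, 15 and 0, and at 10 mM they gave 0, 5, 0 and 0. For 20 against 2 mM set 4 gave 1 averaged over light, 0 in mid light and 10 in high light, set 2 gave 20 in high light, and sets 1 and 3 gave 21 in mid light. For 5 against 2 mM sets 1, 3 and 4 gave 0 and set 2 gave 33 in mid light, and 0 and 28 averaged over light. For 10 against 5 mM the 4 sets gave 0 in high light and 0 averaged over light. The difference of nitrate changes was called in 0, 0, 4 and 0 genes and the F test in 0, 25, 0 and 0. Thylakoid factors called lower in high light numbered 4 in set 1 and 13 in set 4, and 12 were called higher with nitrate in set 4.

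Directions that turned within sets were few. In set 1 the difference of nitrate changes was -0.12 for PETC, -0.0598 for PETM, -0.40 for FD1, -0.29 for FD2, -0.0794 for FNR1 and -0.21 for ATPC1. The FD1 light change was -0.25 in set 2 and -0.0621 in set 4. The PETE1/PETE2 light difference was -0.14 in set 1, 0.35 (past the test) in set 2 and -0.0278 in set 4, and its nitrate difference was -0.34 in set 2, no longer past the test. FNR1/FNR2 gave nitrate differences of 0.043 in set 1 and 0.0223 in set 2 and a light difference of -0.15 in set 4. PSAD1/PSAD2 light differences of 0.24, 0.10, 0.0671 and 0.0646 in sets 1 to 4 did not pass, nor did its nitrate differences of -0.10 and -0.0639 in sets 2 and 3, and that of set 4 was 0.0912. The PSBO1/PSBO2 light difference of 0.21 in set 1, the PSBQ1/PSBQ2 light differences of -0.12 in set 1 and -0.41 in set 4, and the PSAE1/PSAE2 nitrate difference of 0.42 in set 2 did not pass either. The median depth was 12.5 in units of 1000000 counts, and every subunit gene had at least 435 counts in every library. The spread within groups holds differences between plants and between code sets, and their parts were not tested.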
